A study of Homo sapiens with 13 samples.

Results

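Mixed arrays of the MEF2 and RUNX3 motifs are artificial enhancers whose motif order holds both names and no other. They were found by splitting the order given for each named barcode, in 3 flanking contexts. Of 442 constructs in the 10 bp spacer library 18 were such arrays, with 5468 of 210844 barcodes. Of 542 constructs in the 5 bp spacer library 21 were, with 6886 of 236860 barcodes, and of 513 constructs in the integrated 5 bp library 18 were, with 381 of 16162 barcodes. They comprise both orders of a motif pair (MEF2_RUNX3 and RUNX3_MEF2), the arrays of 3 motifs MEF2_RUNX3_MEF2 and RUNX3_MEF2_RUNX3, the arrays of 4 motifs MEF2_RUNX3_MEF2_MEF2 and MEF2_RUNX3_MEF2_RUNX3, and the alternating array of 5 motifs that starts and ends with MEF2. RUNX3_MEF2_RUNX3 was analysed with the 5 bp spacer only, so 6 of the 7 orders have values at both spacers.

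MEF2 proteins are MADS-box transcription factors known from muscle, neurons and B lymphocytes. RUNX3 is a Runt-domain factor that binds DNA with the partner CBFB and acts in the development of lymphocytes. In STARR-seq the enhancer sits within the transcribed reporter, and its activity is read from how much of its own RNA is made. The motif name says which site was designed into an array, not which protein bound it.

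All libraries were in MEC1, an established chronic lymphocytic leukaemia (B lymphocyte) cell line labelled wild type and given no drug treatment. Episomal plasmids with 10 bp or 5 bp between motifs were electroporated in duplicate and RNA was taken after 24 h, giving 2 mRNA libraries and 1 plasmid DNA library per spacer. For the integrated assay, MEC1 cells with a blasticidin-selected CRE recombinase and a landing pad carrying GFP under a CMV promoter took up the 5 bp library, cells without GFP were sorted after 10 to 12 days and grown for 6 to 7 more, and RNA and genomic DNA were extracted together in triplicate. Nothing says that these triplicates are separate cultures, so their p-values measure the spread between extractions, which may be technical.

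Each array carries many random barcodes of 12 bp, and the sources used here do not give the motif and array sequences. The 5 barcodes below are shown because they alone supplied 36.7% of all mRNA of the mixed arrays in the integrated library. Each is named by the order of its array, its context number last.
RUNX3_MEF2_3: GCAGGCGGAATC
RUNX3_MEF2_1: GGACCTTGGATT
MEF2_RUNX3_2: CGCTGGTGCTCG
MEF2_RUNX3_MEF2_RUNX3_3: TTGTCGTGTAGT
MEF2_RUNX3_MEF2_RUNX3_1: AGGTCAATGCCC

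The episomal tables held 3850658 to 4563359 reads per library. Barcodes with at least 5 plasmid reads were summed per construct. Activity is log2 of the share a construct takes of the mRNA over that of the plasmid DNA, per mRNA library. A construct named rd, 1 per context, carries no motif name. The tables list only barcodes with at least 1 read in all 3 libraries, so activities of weak constructs are overstated. At 10 bp, 6.33% and 6.07% of the mixed arrays' barcodes sat at that limit of 1 mRNA read in the 2 libraries, against 9.64% and 9.87% for homotypic MEF2, 9.55% and 8.83% for homotypic RUNX3 and 8.32% and 9.68% for rd. At 5 bp the shares were 9.76% and 9.92% for mixed arrays, against 15.5% and 15.9% for homotypic MEF2, 19.0% and 22.4% for homotypic RUNX3 and 17.7% and 21.3% for rd. The part of this limit in the differences below was not tested.

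With 10 bp spacers the motif pairs were the most active mixed arrays and, within each context, the array of 5 motifs the least active by mean activity. In context 3 its mean of -1.40 was close to the -1.35 of MEF2_RUNX3_MEF2_MEF2. Their standard errors over barcodes were 0.07 and 0.08, so the lowest rank in context 3 is not settled. MEF2_RUNX3 in context 3 had activities of 0.74 and 0.73, the highest of all 18. MEF2_RUNX3 in context 2 had 0.58 and 0.55, and RUNX3_MEF2 in context 3 had 0.44 and 0.52. All pairs but MEF2_RUNX3 in context 1 had mean activities above those of every 2-motif homotypic array of any context. The homotypic means ran from -0.54 to -0.22 for MEF2 and from -0.68 to 0.32 for RUNX3. RUNX3_MEF2 had 0.39 and 0.45 in context 1 and 0.44 and 0.48 in context 2, and MEF2_RUNX3 had 0.32 and 0.28 in context 1. In context 1 the pairs thus stood beside RUNX3_RUNX3, which had 0.32 and 0.33. The rd constructs had mean activities of -0.68, -0.31 and -0.87 in contexts 1, 2 and 3.

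The longer arrays were lower. The alternating array of 5 motifs had -2.36 and -2.54 in context 1, -2.01 and -2.16 in context 2 and -1.40 and -1.39 in context 3. MEF2_RUNX3_MEF2_MEF2 in context 2, at -1.71 and -1.77, completed the 3 lowest members. All 4 of these lay below rd of their own context in both libraries. The 4-motif arrays that end in RUNX3 were higher than those that end in MEF2, although both begin with the same 3 motifs: MEF2_RUNX3_MEF2_RUNX3 exceeded MEF2_RUNX3_MEF2_MEF2 by 1.28 ± 0.02, 1.07 ± 0.01 and 0.90 ± 0.06 log2 units in contexts 1, 2 and 3 (SD, n = 2), or 2.43, 2.10 and 1.87-fold. The same arrays differ in composition as well as in the last motif, with 2 RUNX3 motifs against 1. At 5 bp this difference was -0.15 ± 0.05, 0.54 ± 0.01 and 0.14 ± 0.05 in contexts 1, 2 and 3 (SD, n = 2). These SDs leave out the spread over barcodes. At 5 bp activities of the arrays ending in MEF2 and RUNX3 had standard errors over barcodes of 0.18 and 0.08 in context 1. In context 3 they were 0.12 and 0.06. The differences in contexts 1 and 3 are of that size, so their direction is not settled. At 10 bp such standard errors ran from 0.05 to 0.12.

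By the joint edgeR fit of both spacers, with TMM scaling, 8 of 18 mixed arrays had more mRNA than plasmid DNA at 10 bp, beside 45.7% of all 442 designs, and 7 had less, beside 48.6%. The median log2 ratio was -0.01 for mixed arrays of MEF2 and RUNX3, -0.12 for all designs and 0.18 for mixed arrays of all pairs. At 5 bp 7 of 18 were higher, beside 40.5% of all designs, and 8 lower, beside 49.5%. Medians there were -0.09 for these arrays, -0.14 for all designs and 0.13 for mixed arrays of all pairs. These shares are close to the background and say nothing particular to the pair. They also follow the scaling: at 5 bp, 1 was higher and 15 lower by library totals, and 13 were higher and 0 lower when scaled on rd.

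Against rd of the same context, 9 of 18 mixed arrays were higher at 10 bp (limma, adjusted p under 0.05), beside 46.2% of all constructs, and 9 lower, beside 47.4%. All 6 pairs were among those higher, by 0.77 to 1.60 log2 units. The arrays that fell below rd were MEF2_RUNX3_MEF2 in contexts 1 and 2, all 3 MEF2_RUNX3_MEF2_MEF2, MEF2_RUNX3_MEF2_RUNX3 in context 2 and all 3 arrays of 5 motifs. MEF2_RUNX3_MEF2 in context 1 turned to 0.26 above rd when barcodes needed 20 plasmid reads. At 5 bp 15 of 21 were higher than rd, beside 64% of all constructs, and 0 lower, beside 30.4%. With at least 20 plasmid reads per barcode 1 was lower. These tests use only the spread between 2 mRNA libraries that share 1 plasmid DNA library, and most of all constructs pass them in either direction.

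The departure of a mixed array is its log2 activity minus that of homotypic arrays of the same length and context, averaged with weights by copy number. At 10 bp 14 of 18 mixed arrays lay above that mean, beside 68.9% of 318 mixed arrays of all pairs, and 3 below, beside 23.6%. The 3 were MEF2_RUNX3_MEF2_MEF2 in context 2 and the arrays of 5 motifs in contexts 1 and 2. Their median departure was 0.37, against 0.53 for all mixed arrays, which ranked the pair 14 of 28. By mean activity, with no test, 8 of the 18 exceeded both homotypic arrays, beside 43.7% of the 318. The largest departures were those of MEF2_RUNX3_MEF2_RUNX3 in context 1 (1.42 and 1.30 in the 2 libraries), MEF2_RUNX3 in context 3 (1.19 and 1.20) and MEF2_RUNX3_MEF2_RUNX3 in context 3 (1.06 and 1.09). MEF2_RUNX3_MEF2_RUNX3 had activities of -0.22 and -0.22 in context 1, against -2.12 and -1.88 for 4 MEF2 motifs and -1.16 and -1.16 for 4 RUNX3 motifs. It thus stood above both homotypic arrays in either library.

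The arrays of 5 motifs at 10 bp departed by -0.37 and -0.79 in context 1, by -0.06 and -0.23 in context 2 and by 0.23 and 0.36 in context 3. The means were -0.58 ± 0.29, -0.15 ± 0.12 and 0.29 ± 0.09 (SD, n = 2). For 16 of the 18 the standard error over barcodes was larger than that over the 2 libraries. By the ratio over barcodes, departures had standard errors from 0.05 to 0.34, and 13 of 18 lay more than 2 standard errors above 0, beside 66.7% of all 318, and 1 (5 motifs, context 1) below, beside 22%. MEF2_RUNX3_MEF2 in context 1 has the 0.34: 1 barcode of its 250 held 2.61% of the plasmid reads with 483 and 469 mRNA reads. Its departure was -0.03 (adjusted p = 0.388, limma), -0.43 without that barcode and 0.30 when barcodes needed 20 plasmid reads, so its direction is not settled.

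With 5 bp spacers every one of the 21 mixed arrays lay above its homotypic mean. This is 21 of 21 by limma, beside 60.5% of 418 mixed arrays of all pairs, and 0 below, beside 32.5%. The median departure was 0.89, against 0.36 for all mixed arrays, and the pair ranked 7 of 28. By mean activity, with no test, 18 of the 21 exceeded both homotypic arrays, beside 37.1% of the 418. By the spread over barcodes, with standard errors from 0.05 to 0.27, all 21 departures were more than 2 standard errors above 0, beside 58.6% of all 418, and 0 were as far below, beside 30.1%. The smallest departure was 0.10 for RUNX3_MEF2_RUNX3 in context 1 (adjusted p = 0.0189, limma), where 3 RUNX3 motifs alone were higher.

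The alternating array of 5 motifs had the largest departures of the 21. Its activities were -0.65 and -0.57 in context 1, -1.16 and -0.95 in context 2 and -0.85 and -0.89 in context 3. Arrays of 5 MEF2 motifs had mean activities of -2.48, -2.79 and -3.03 in these contexts, and arrays of 5 RUNX3 motifs of -2.97, -2.53 and -2.49. The mixed arrays lay above both by 1.87, 1.48 and 1.62 log2 units, and above the copy-weighted mean by 2.06 ± 0.38, 1.64 ± 0.12 and 1.94 ± 0.11 (SD, n = 2), or 4.18, 3.11 and 3.85-fold. These values rest on few barcodes: 26, 65 and 54 for the mixed arrays, and 7, 5 and 9 for 5 MEF2 motifs.

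The highest mixed arrays at 5 bp were RUNX3_MEF2 in context 2 (0.40 and 0.39), RUNX3_MEF2 in context 1 (-0.01 and 0.05) and MEF2_RUNX3_MEF2 in context 2 (-0.02 and 0.04). The lowest were MEF2_RUNX3_MEF2_MEF2 in context 3 (-1.53 and -1.39), MEF2_RUNX3_MEF2_RUNX3 in context 3 (-1.43 and -1.22) and MEF2_RUNX3_MEF2_RUNX3 in context 1 (-1.46 and -1.13). All 3 of the lowest have 4 motifs. RUNX3_MEF2 in context 3 had -0.20 and -0.12, and MEF2_RUNX3 had -0.30 and -0.27 in context 1, -0.17 and -0.06 in context 2 and -0.56 and -0.50 in context 3. In context 3 MEF2_MEF2 had -0.23 and -0.08, a range that holds both values of RUNX3_MEF2 and lies above those of MEF2_RUNX3.

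Averaged over contexts, the levels over rd fell into a different order by spacer. At 10 bp they were 1.15 ± 0.06 for MEF2_RUNX3 and 1.07 ± 0.12 for RUNX3_MEF2, against 0.19 ± 0.06 for MEF2_MEF2 and 0.37 for RUNX3_RUNX3 (SD, n = 2). They were 0.13 ± 0.08 for MEF2_RUNX3_MEF2, 0.17 ± 0.06 for MEF2_RUNX3_MEF2_RUNX3, -0.91 ± 0.08 for MEF2_RUNX3_MEF2_MEF2 and -1.36 for the array of 5 motifs. Pairs thus led and the arrays of 5 motifs came last. At 5 bp they were 0.99 ± 0.05 for MEF2_RUNX3 and 1.39 ± 0.03 for RUNX3_MEF2, against 0.88 ± 0.11 for MEF2_MEF2 and 0.01 ± 0.02 for RUNX3_RUNX3. MEF2_RUNX3_MEF2 had 0.93 ± 0.08, RUNX3_MEF2_RUNX3 0.61, the array of 5 motifs 0.46 ± 0.06, MEF2_RUNX3_MEF2_RUNX3 0.21 ± 0.16 and MEF2_RUNX3_MEF2_MEF2 0.03 ± 0.13. On this mean the array of 5 motifs stood below both arrays of 4 at 10 bp and above both at 5 bp. At 10 bp it was also below both in contexts 1 and 2. In context 3 it was too close to MEF2_RUNX3_MEF2_MEF2 to settle the rank (mean activities of -1.40 and -1.35). In context 2 at 5 bp the array of 5 motifs lay below MEF2_RUNX3_MEF2_RUNX3, with mean activities of -1.05 and -0.66.

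By context, median activities at 10 bp were -0.52, -0.67 and -0.21 in contexts 1, 2 and 3, with median departures of 0.35, 0.31 and 0.65. At 5 bp the medians were -0.61, -0.40 and -0.87, with departures of 0.89, 1.06 and 0.88. All 6 arrays in context 3 lay above their homotypic mean at 10 bp, and 4 of 6 in each of the other contexts. Context 3 thus had the highest median activity at 10 bp and the lowest at 5 bp. Over rd of the same context the medians were 0.16, -0.36 and 0.66 at 10 bp in contexts 1, 2 and 3. At 5 bp they were 0.64, 0.72 and 0.68, so that context 3 was not the lowest over rd. Its rd had the lowest mean activity at 5 bp, -1.55 against -1.25 and -1.12 in contexts 1 and 2.

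Composition at 3 motifs could be compared at 5 bp. RUNX3_MEF2_RUNX3 minus MEF2_RUNX3_MEF2 was -0.93 ± 0.08, -0.41 ± 0.05 and 0.38 ± 0.06 log2 units in contexts 1, 2 and 3 (SD, n = 2). The array with more MEF2 was thus higher in 2 contexts and lower in the third.

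Pairs exceeded the sum of their single motifs in every context of both episomal libraries by mean activity. This excess was not computed for other motif pairs, so it is not shown to be particular to MEF2 with RUNX3. At 10 bp MEF2_RUNX3 lay above rd by 0.61, 2.27 and 0.55 log2 units more than the sum of single MEF2 and single RUNX3 over rd, in contexts 1, 2 and 3, and RUNX3_MEF2 by 0.73, 2.16 and 0.30. At 5 bp the excess was 0.13, 0.22 and 1.26 for MEF2_RUNX3 and 0.44, 0.73 and 1.63 for RUNX3_MEF2. Its SD over the 2 mRNA libraries was at most 0.13 at either spacer, and its spread over barcodes was not computed. In the integrated library the excess was 2.24 ± 1.38, 4.23 ± 0.33 and -1.31 ± 1.30 for MEF2_RUNX3 in contexts 1, 2 and 3, and 5.93 ± 4.96, 2.57 ± 1.06 and -0.93 ± 0.58 for RUNX3_MEF2 (SD, n = 3). Both pairs were thus below the sum in context 3 there. In context 1 the single MEF2 motif had integrated activities of -3.65, -3.13 and -10.7, the last with mRNA at or close to 0. MEF2_RUNX3 in context 1 had no mRNA in that extraction either (-10.2). Both excesses in context 1 therefore rest in part on the pseudocount, and the SD of 1.38 does not measure their precision. In the episomal libraries the excess was largest where both single motifs lay below rd. These were context 2 at 10 bp (-0.64 for MEF2, -0.75 for RUNX3) and context 3 at 5 bp (-0.07 and -0.16). Levels of single motifs are subtracted in the excess, so low singles raise it by construction. Over rd itself, MEF2_RUNX3 and RUNX3_MEF2 were lowest in context 2 at 10 bp (0.88 and 0.77). At 5 bp MEF2_RUNX3 had 0.96, 1.00 and 1.02 over rd and RUNX3_MEF2 1.27, 1.51 and 1.39 in contexts 1, 2 and 3. A pair adds more designed sequence than a single motif, and the part of length was not tested.

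At 5 bp the order of the pair gave the same direction in all contexts. MEF2 first minus RUNX3 first was -0.29 and -0.32 in context 1, -0.57 and -0.44 in context 2 and -0.35 and -0.38 in context 3. RUNX3 first was higher in all 3 contexts in both libraries, by 1.24, 1.42 and 1.29-fold (limma adjusted p = 1.35e-06, 5.3e-13 and 1.79e-08). By the spread over barcodes these differences were -4.42, -8.59 and -5.71 standard errors. All 3 passed, beside 82.1% of the 84 order comparisons of all pairs. At 10 bp the difference was -0.07 and -0.16 in context 1, 0.14 and 0.07 in context 2 and 0.29 and 0.20 in context 3, and 1 of 3 passed (context 3, adjusted p = 0.0164, limma), beside 73.8%. In context 3 MEF2 first was higher, by 1.19-fold, the opposite of 5 bp. The difference between spacers in order was not tested.

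The spacer contrast compared the mRNA to plasmid DNA ratio at 10 bp with that at 5 bp over the 18 arrays measured at both. By edgeR 8 were higher at 10 bp, beside 36% of all 442 designs, and 6 lower, beside 41.2%. The pairs were higher by 0.08 to 1.27 log2 units, 5 of 6 passing the test. The arrays of 5 motifs were lower in all contexts, by -1.82 (SE 0.17), -1.02 (SE 0.14) and -0.52 (SE 0.12), with adjusted p of 5.69e-08, 7.81e-06 and 0.00135. MEF2_RUNX3_MEF2 was lower in contexts 1 and 2 (-0.55 and -0.67) and higher in context 3 (0.91). MEF2_RUNX3_MEF2_RUNX3 was higher in contexts 1 and 3 (1.09 and 0.89).

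The rd constructs themselves were 0.58, 0.81 and 0.69 log2 units higher at 10 bp. Scaled on rd, 2 of 18 mixed arrays were higher and 11 lower, and the median moved to -0.61, against 0.10 with TMM. The arrays of 5 motifs stayed lower with either scaling. The direction of 5 of the 6 pairs turned with it: scaled on rd, MEF2_RUNX3 was at -0.11 and -0.02 in contexts 1 and 2, and RUNX3_MEF2 at -0.30, -0.63 and -0.05 in contexts 1, 2 and 3. The 2 spacers are separate plasmid pools with 1 plasmid DNA library each, so that spacer and pool cannot be told apart.

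In the integrated library few barcodes of the mixed arrays gave mRNA. Of 384 barcodes, 10.9%, 8.07% and 7.81% had mRNA in extractions 1, 2 and 3, a mean of 8.94 ± 1.73% (SD, n = 3). Homotypic MEF2 had 10.3 ± 2.67%, homotypic RUNX3 5.65 ± 1.20%, rd 9.49 ± 3.08% and all listed barcodes 19.6 ± 2.66%. By these means mixed arrays stood within the spread of the homotypic MEF2 arrays and rd, above RUNX3 and below the library as a whole. The 95% Clopper-Pearson intervals of mixed arrays and homotypic RUNX3 overlapped in extractions 2 and 3 but not in extraction 1. RUNX3_MEF2_RUNX3 alone had 5.85 ± 0.88% (SD, n = 3), close to homotypic RUNX3. In any extraction 82 of 384 barcodes had mRNA (21.4%, 95% Clopper-Pearson interval 17.4 to 25.8), and 5 had it in all 3. PCR reads here carry no molecular identifiers, so such intervals cover counting error only.

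Activity in the integrated library is log2 of summed mRNA RPM (reads scaled to library size) over summed genomic DNA RPM, each with 0.5 added. Values near -9 mean that the mRNA is listed at or close to 0. Of 18 mixed arrays with at least 3 barcodes, 9 had mRNA in all 3 extractions, 8 were at 0 in 1 or 2 extractions and 1 at 0 in all. That 1, MEF2_RUNX3_MEF2_MEF2 in context 3, had 8 barcodes. Taking 3 barcodes as the upper limit for a count of 0, up to 37.5% of them could give mRNA. This is a rough rule at so few barcodes and not a Clopper-Pearson limit. Beside it the lowest were MEF2_RUNX3_MEF2_RUNX3 in context 2 (-9.30, -9.30 and -2.79) and MEF2_RUNX3_MEF2 in context 2 (-2.56, -8.98 and -9.00). The extractions of such arrays differ widely, and their means carry little information. The highest were MEF2_RUNX3_MEF2_RUNX3 in context 1 (0.46, -1.02 and 0.12), MEF2_RUNX3 in context 2 (-0.65, -2.02 and -1.66) and RUNX3_MEF2 in context 1 (-0.52, -2.56 and -1.53). Single barcodes weigh heavily in these values: 80.7%, 48.3% and 66.4% of the mRNA of these 3 arrays came from 1 barcode each, all among the 5 printed above. For MEF2_RUNX3 in context 2, with the 48.3%, 8 of 19 barcodes had mRNA.

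The other pairs had the following values. RUNX3_MEF2 had -3.40, -3.66 and -2.23 in context 2 and -2.24, -2.43 and -2.70 in context 3. MEF2_RUNX3 had -2.07, -3.42 and -10.2 in context 1 and -2.13, -3.71 and -2.67 in context 3. The alternating array of 5 motifs, measured in context 2 only, had -1.67, -8.71 and -2.22. Of the pairs only MEF2_RUNX3 in context 1 had an extraction without mRNA, and the array of 5 motifs had 1 as well.

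By limma, 0 of 18 mixed arrays were higher in mRNA than in genomic DNA, beside 13.5% of 513 constructs, and 13 were lower, beside 55.9%. Their median was -3.85, against -1.45 for all constructs. Against rd of the same context 2 were higher, beside 27.8%, and 7 lower, beside 27.6%. Both higher ones were in context 3: MEF2_RUNX3_MEF2_RUNX3 by 1.84 ± 0.31 and RUNX3_MEF2 by 1.32 ± 0.09 log2 units (SD, n = 3). The rd constructs there had mean activities from -3.77 in context 3 to 0.75 in context 2, so that comparisons with rd depend on context. Without the barcode of highest mRNA in each construct, 0 were higher and 3 lower.

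Of 14 mixed arrays with both homotypic partners, 1 lay above the copy-weighted mean in the integrated library, beside 12.5% of 375, and 0 below, beside 6.93%. The 1 was RUNX3_MEF2 in context 1, by 2.54, 3.87 and 5.42 (adjusted p = 0.0425, limma). The call was lost without any 1 of the 3 extractions (limma adjusted p from 0.10 to 0.109), with a pseudocount of 0.1 (0.0595) and against the stronger homotypic array (0.0689). Over all alternatives that gave a value the adjusted p ran from 0.0231 to 0.109. Its homotypic partner MEF2_MEF2 rests on 3 barcodes, so with at least 20 barcodes, or without the barcode of highest mRNA, no departure could be had. By mean activity, with no test, 5 of the 14 exceeded both homotypic arrays, beside 28.3% of the 375. The other large departures, MEF2_RUNX3_MEF2 in context 2 (-0.07, -6.81 and -6.18) and RUNX3_MEF2_RUNX3 in context 1 (-3.62, -0.82 and -7.70), had extractions without mRNA and did not pass (limma adjusted p = 0.126 for both). The median departure was -0.03, against 0.20 for all mixed arrays, and the pair ranked 14 of 28. The order of the pair gave 0 of 3 calls, beside 15.5% of 84.

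The same barcodes tie the libraries together. Of the 258 barcodes of mixed arrays in the integrated table that also bear a name in the episomal 5 bp table, 257 carry the same construct name. Of the 5 barcodes printed above, 4 bear such a name, and in the episomal library their mRNA reads were 11 and 7 for RUNX3_MEF2 in context 3, 19 and 13 for RUNX3_MEF2 in context 1, 7 and 3 for MEF2_RUNX3_MEF2_RUNX3 in context 3 and 10 and 6 for it in context 1. Their plasmid reads there were 19, 15, 10 and 20. None of the 4 had over 20 plasmid reads there.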

How the data were processed

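Activity of barcoded enhancer arrays was measured by STARR-seq in MEC1 cells in 13 samples. Episomal values are unnormalized counts of reads per barcode, as deposited by the authors. For the integrated library the deposited values are RPM for mRNA and genomic DNA. No sample's labels matched 9 other columns of values, which were not used. The sources used here name no aligner. Reads of unnamed barcodes, 16.6% to 18.5%, stayed out. Constructs needed 5 episomal or 3 integrated barcodes.

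Counts of 442 shared designs were fitted with edgeR 4.0.16 (quasi-likelihood, TMM), with the single plasmid DNA library per spacer taken to vary like the mRNA libraries. Departures, levels over rd and orders were tested with limma 3.58.1 on per-library differences, and integrated values with limma on log2(RPM + 0.5), in R 4.3.3. P-values were Benjamini-Hochberg adjusted within each test over all constructs tested. For departures these were the mixed arrays of all pairs with both homotypic partners, and for orders all order comparisons. DESeq2 1.42.0 was an alternative. The procedures were checked on simulated data.

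Members and lists were chosen with earlier results of these data known. Named singly are pairs, arrays of 5 motifs, and the 3 highest, 3 lowest and 3 most departing members per library. Other members are named where a count needs it. Same-numbered integrated mRNA and genomic DNA samples did not deviate together (r = -0.02, 0.05 and -0.03).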

Additional observations from a re-analysis of the deposited data

Results flagged for a closer look

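Responses that differed between spacers (10 bp minus 5 bp) by the edgeR interaction were 0.60, 0.69 and 1.27 for MEF2_RUNX3 in contexts 1, 2 and 3. They were 0.41 and 0.66 for RUNX3_MEF2 in contexts 1 and 3. For MEF2_RUNX3_MEF2 they were -0.55, -0.67 and 0.91 in contexts 1, 2 and 3. For MEF2_RUNX3_MEF2_MEF2 in context 2 the value was -0.53, and for MEF2_RUNX3_MEF2_RUNX3 1.09 and 0.89 in contexts 1 and 3. The arrays of 5 motifs had -1.82, -1.02 and -0.52.

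Departures from the homotypic mean were below 0 in both 10 bp libraries and above 0 in both 5 bp libraries for MEF2_RUNX3_MEF2 in context 1 (-0.0349 at 10 bp), MEF2_RUNX3_MEF2_MEF2 in context 2 (-0.34) and the array of 5 motifs in contexts 1 and 2 (-0.58 and -0.15). By the spread over barcodes these 10 bp departures were -0.10, -1.59, -3.88 and -0.88 standard errors. Only that of 5 motifs in context 1 was thus more than 2 below 0. Arrays of 5 MEF2 motifs held 17 and 18 barcodes in contexts 1 and 2 at 10 bp. The order difference, MEF2 first minus RUNX3 first, was 0.11 and 0.25 at 10 bp in contexts 2 and 3, with the opposite sign at 5 bp. These opposite signs were not tested.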

How the results depend on the processing

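Values are for mixed MEF2 and RUNX3 arrays. Library totals gave 1 array higher and 15 lower at 5 bp (median -0.76), 11 lower at 10 bp (-0.56) and a median spacer difference of 0.21. They turned MEF2_RUNX3 at 5 bp to -0.41, -0.24 and -0.65, MEF2_RUNX3_MEF2 to -0.38 and -0.11 in contexts 1 and 2, RUNX3_MEF2 to -0.10 and -0.29 in contexts 1 and 3, and MEF2_RUNX3_MEF2_RUNX3 at 10 bp to -0.22 and -0.45 in contexts 1 and 3. Scaling on rd gave 13 higher and 0 lower at 5 bp (median 0.66), a median of 0.0353 at 10 bp, and 2 higher and 11 lower between spacers (-0.61). It turned, at 5 bp, MEF2_RUNX3_MEF2 in context 3 to 0.42, MEF2_RUNX3_MEF2_MEF2 in contexts 1 and 2 to 0.14 and 0.093, MEF2_RUNX3_MEF2_RUNX3 in contexts 1 and 2 to 0.00049 and 0.64, and the arrays of 5 motifs to 0.68, 0.24 and 0.42. Between spacers it turned MEF2_RUNX3 to -0.11 and -0.0175, RUNX3_MEF2 to -0.30, -0.63 and -0.0500, and MEF2_RUNX3_MEF2_MEF2 in context 3 to -0.58. DESeq2 gave medians of 0.0158 at 5 bp and 0.000332 between spacers, and a fit of 5 bp alone 0.12. With the replicate number as a block the 10 bp median was -0.0283, and counts were 8 higher and 7 lower, as without it. The same block left 11 integrated arrays lower. Differences between episomal replicates 1 and 2 correlated at 0.05 between spacers, so no pairing by replicate number was seen. The spacers are separate plasmid pools, so this check cannot exclude a pairing.

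Departures from the stronger homotypic array were higher for 7 and lower for 8 at 10 bp (median -0.0572), lower for 2 at 5 bp (0.76), and higher for 0 and lower for 1 in the integrated library (-1.58). At 10 bp this turned MEF2_RUNX3 in context 1 to -0.0233, MEF2_RUNX3_MEF2 in contexts 2 and 3 to -0.44 and -0.30, MEF2_RUNX3_MEF2_MEF2 in contexts 1 and 3 to -0.34 and -0.17 and MEF2_RUNX3_MEF2_RUNX3 in context 2 to -0.0912. At 5 bp it turned MEF2_RUNX3 and RUNX3_MEF2 in context 3 to -0.38 and -0.00982 and RUNX3_MEF2_RUNX3 in context 1 to -0.15. This comparison is stricter by construction. A linear mean gave median departures of 0.32 at 10 bp, 0.89 at 5 bp and -0.96 integrated. Combined edgeR estimates gave 0.89 at 5 bp. Medians over barcodes gave departures of 0.76 at 5 bp, levels over rd of 0.0605 at 10 bp and 0.58 at 5 bp, and 2 orders passing at 10 bp. With no plasmid minimum the 10 bp ratio was 0.0248, departures 0.40 at 10 bp and 0.89 at 5 bp, and 2 orders passed at 10 bp. With at least 20 plasmid reads the ratio was 0.15 at 10 bp, the spacer difference -0.0454, departures 0.40 at 10 bp and 1.05 at 5 bp (13 of 14 higher), levels over rd 0.38 and 0.81 with 1 lower at 5 bp, the 5 bp order -0.43 and 1 order lower at 10 bp. MEF2_RUNX3_MEF2 in context 1 at 10 bp then turned to 0.0867, 0.30 and 0.26 in ratio, departure and level over rd. With at least 20 barcodes the 10 bp ratio was -0.0348 and departures 0.43 at 10 bp (1 lower) and 0.88 at 5 bp. In the integrated library it left 7 arrays, all 7 lower than genomic DNA, 0 departures higher, and 1 higher and 3 lower than rd (-0.54). Without the barcode of most plasmid reads, chosen after seeing the data, departures were 0.35 at 10 bp and 0.87 at 5 bp and the level over rd 0.0357 at 10 bp.

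Without 1 mRNA library the 10 bp median ratio ran from -0.0116 to 0.0182; leaving out libraries singly in the joint fit was also chosen after seeing the data. Departures ran from 0.39 to 0.40 at 10 bp and were 0.90 at 5 bp, and levels over rd at 5 bp from 0.66 to 0.73. Without 1 extraction the integrated library had 7 to 11 lower than genomic DNA (7 without replicate 2), 0 departures higher (median -1.01 to 0.0616), and 0 to 1 higher and 4 to 5 lower than rd (median -4.08 to -2.02). Centred on rd, 7 were lower than genomic DNA (-2.51). With a pseudocount of 0.1, 0 departures were higher, and 3 with at least 1 barcode. Without the barcode of highest mRNA the ratio was -5.25, 0 departures were higher, 0 were higher and 3 lower than rd (-2.40), MEF2_RUNX3_MEF2_RUNX3 in context 3 turned to -0.61, and the order median was 1.05. Causes of these shifts were not tested. Integrated results thus rest on single barcodes and extractions.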
